A study of Mus musculus with 3 samples.

Results

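Cxcl10, Ifit1, Ifit3, Trim30a, Irf7, Isg15, Stat2 and Bst2 are 8 interferon response genes of the mouse, among the 18545 genes measured in single retinal cells of wildtype and rd10 mice. They were chosen by name because their detection and level in these same cells had been seen to vary with the cluster and the library. All values of the 8 genes below are therefore descriptions, and none was tested. Every count of members past a fold limit repeats the choice of the genes and is not independent of it.

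Interferons are cytokines released when a cell senses foreign or misplaced nucleic acid or is stimulated by immune cells. Type I and type III interferons signal through Jak kinases to a transcription factor complex that includes Stat2 and Irf9 and binds the interferon-stimulated response element (ISRE) in the promoters of its target genes, while interferon gamma acts at a different site called GAS. In the retina, interferon-stimulated genes are known to be induced in Müller glia (MG), microglia, astrocytes and vascular cells during infection, injury and photoreceptor loss.

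Single-cell RNA libraries were made with the 10x Genomics 3' chemistry from whole retinas of C57BL/6J mice at 8 weeks of age, all raised in the dark. The wildtype (WT) library came from mice on plain chow. The rd10 mice carry a point mutation in Pde6b, a subunit of the rod phosphodiesterase, and lose their rods by inherited degeneration. The rd10-vehicle mice ate the same plain chow as WT, and the rd10-TMB mice ate chow with tamsulosin (an alpha-1 adrenergic antagonist), metoprolol (a beta-1 adrenergic antagonist) and bromocriptine (a dopamine D2 receptor agonist). By the labels each library pooled 1 retina from each of 4 mice, although the study text gives a smaller number of rd10 mice. Both rd10 libraries were from females, whereas the WT library pooled both sexes. There was 1 library per group, so that group, library, sex and depth cannot be told apart, the spread between mice is unknown and no p-value is given.

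The WT library held 4478 cells and 18882951 unique molecular identifiers (UMIs), that of rd10-vehicle 5952 and 37002532, and that of rd10-TMB 4812 and 29192530, with medians of 3509.5, 4811.5 and 4772.5 UMIs per cell. Between 7 and 10 cell barcodes were shared by each pair of libraries (50 cells in all), and leaving these cells out moved no ratio beyond its 95% interval. Cell classes are the deposited clusters, named from marker genes. The MG-like cluster had all 13 MG markers at 2-fold or more above the remaining cells. The endothelial-like cluster had 11 of 12 endothelial and also 10 of 10 mural cell markers. The microglia-like cluster had 12 of 12 microglia markers, and also 3 of 3 B-cell (Cd79a, Cd79b and Ighm) and 4 of 9 lens markers. The small astrocyte-like cluster rested on 4 of 8 astrocyte markers (Gfap, Pax2, S100b and Slc14a1), and its first gene by fold was Pdgfra, a growth factor receptor. Levels are given as UMIs per 1000000 UMIs of a class (CPM), each with a 95% exact Poisson interval where it is printed; these intervals and those of the shares cover counting error only. UMIs were read from the 3' end of transcripts and are not divided by length, so levels are compared within a gene, or within the same sum of genes, and between genes only ratios are. Where 3 values stand side by side without names, they are in the order WT, rd10-vehicle, rd10-TMB.

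Positions are those of mm10. Cxcl10 lies at chr5:92346638-92348889, inside the gene Art3, which is read from the opposite strand. Ifit1, at chr19:34640889-34650009, overlaps Ifit1bl1 and lies near Ifit3 at chr19:34583119-34588982. Trim30a lies at chr7:104409025-104465193, Irf7 at chr7:141263183-141266499, Isg15 at chr4:156199424-156200818, Stat2 at chr10:128270498-128292853 and Bst2 at chr8:71534255-71537472. Ifit3 and Trim30a have near-identical neighbours, Ifit3b and Trim30d, with which they can share reads, so their own counts are uncertain.

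Because the members are known as targets of the ISRE, the 250 bases before the starts in the RefSeq promoter table of GRCm38.p6 were searched, with 2 starts for Trim30a and 1 for each other member. The window of Ifit3 and 1 of those of Trim30a lie inside the gene spans given above and that of Irf7 reaches partly into its span, so the bases before the outer end of Ifit3 and Irf7 were not, or not wholly, the ones searched. The ISRE core, taken as GAAA and GAAA separated by 2 bases on either strand, occurred in the windows of 7 of the 8 genes (not in that of Irf7) and in 2.98% of 32851 promoters of that length. The GAS core, taken as TTC and GAA separated by 3 bases, was found in Bst2 alone among the 8 and in 7.02% of all promoters. The NF-kB consensus was found in Cxcl10, at 2 places, and in Bst2, against 3.90% of all promoters. A match is a match of letters and not a shown binding site. The windows of 4 genes whose levels are described most below are printed 5' to 3' on the gene's strand, with the ISRE matches in capitals. In Isg15 3 matches overlapped between 78 and 57 bases before the start, Ifit1 had 2 separate matches, Cxcl10 had 1 at 213 to 204 bases before the start, and in Bst2 2 matches overlapped, with the GAS and NF-kB matches next to or across them.
Isg15, chr4:156200819-156201068, minus strand: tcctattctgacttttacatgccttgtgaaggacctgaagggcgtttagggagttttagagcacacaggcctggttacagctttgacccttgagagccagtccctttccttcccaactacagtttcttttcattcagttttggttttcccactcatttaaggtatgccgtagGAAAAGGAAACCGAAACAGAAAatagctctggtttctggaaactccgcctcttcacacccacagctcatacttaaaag
Ifit1, chr19:34640639-34640888, plus strand: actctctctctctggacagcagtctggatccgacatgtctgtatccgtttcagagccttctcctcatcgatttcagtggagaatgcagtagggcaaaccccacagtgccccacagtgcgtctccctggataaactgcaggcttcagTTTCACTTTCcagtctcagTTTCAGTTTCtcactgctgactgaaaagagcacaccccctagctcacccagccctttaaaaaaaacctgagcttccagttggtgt
Cxcl10, chr5:92348890-92349139, minus strand: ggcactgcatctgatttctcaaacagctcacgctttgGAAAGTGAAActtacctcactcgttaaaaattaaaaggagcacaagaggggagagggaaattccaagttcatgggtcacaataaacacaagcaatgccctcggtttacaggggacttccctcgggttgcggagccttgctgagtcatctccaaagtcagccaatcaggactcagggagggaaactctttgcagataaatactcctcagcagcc
Bst2, chr8:71537473-71537722, minus strand: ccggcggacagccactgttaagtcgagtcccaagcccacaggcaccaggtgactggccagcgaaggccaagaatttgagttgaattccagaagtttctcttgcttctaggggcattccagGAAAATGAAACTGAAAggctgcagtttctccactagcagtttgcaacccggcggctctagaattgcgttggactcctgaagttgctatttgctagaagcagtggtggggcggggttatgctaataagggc

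In the MG-like cells, all 8 genes were higher in both rd10 libraries than in WT, although Stat2 did not keep this when cells were thinned to equal depth. The class held 530, 2492 and 1748 cells with 3319917, 22198511 and 16777299 UMIs. Summed over the 8 genes, the level was 150.0, 561 and 622 CPM, from 498, 12455 and 10440 UMIs. The log2 ratio of the sums was 1.90 (1.77 to 2.04) for rd10-vehicle over WT and 2.05 (1.92 to 2.19) for rd10-TMB over WT, and the rd10 libraries differed from each other by 0.15 (0.11 to 0.19).

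Isg15, a ubiquitin-like protein that is joined to other proteins during the response, was at 19.9 CPM (15.4 to 25.3), 177 CPM (172 to 183) and 217 CPM (210 to 225). Ifit1, a protein that binds foreign RNA lacking the host's cap marks, was at 6.93 CPM (4.39 to 10.4), 68.7 CPM (65.3 to 72.2) and 80.1 CPM (75.9 to 84.5). Both were thus lowest in WT by a wide margin, and the intervals of the rd10 libraries did not touch, with rd10-TMB the higher. Ifit3, a partner of Ifit1 in the same family, was at 50.6 CPM (43.2 to 58.9) in WT and reached 98.0 CPM (93.9 to 102.2) and 139.7 CPM (134 to 145) in the rd10 libraries. Of the 8 genes it differed most between the rd10 libraries in the direction of rd10-TMB, by 0.51 (0.43 to 0.60) on the log2 scale, against 0.30 for Isg15 and 0.22 for Ifit1.

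Bst2 (tetherin), a membrane protein that holds budding viruses to the cell, was at 51.8, 115 and 111 CPM, from 172, 2557 and 1869 UMIs. Trim30a, which restrains inflammatory signalling, had 4, 438 and 329 UMIs, or 1.20, 19.7 and 19.6 CPM. For these genes the rd10 libraries were not told apart, with log2 ratios of rd10-TMB over rd10-vehicle of -0.05 (-0.14 to 0.04) and -0.01 (-0.22 to 0.20).

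Irf7 and Stat2 act inside the signalling chain. Irf7, the transcription factor that amplifies type I interferon production, was at 5.72, 20.6 and 21.5 CPM. Stat2, which carries the signal from the receptor to the ISRE, was at 13.9, 24.2 and 22.2 CPM and had the smallest ratios of the 8 genes to WT, 0.78 for rd10-vehicle and 0.66 (0.24 to 1.16) for rd10-TMB. For both genes the interval between the rd10 libraries held 0.

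Cxcl10, a chemokine that draws activated T cells, was the one member with no UMI in the WT MG-like cells. A count of 0 allows up to 3 UMIs, or 0.904 CPM, in this class. In rd10-vehicle it was at 37.6 CPM (35.1 to 40.2) from 834 UMIs, at least 41.6-fold higher than that limit, whereas rd10-TMB had 10.3 CPM (8.83 to 12) from 173 UMIs. It was also the member with the largest difference between the rd10 libraries, and the direction was opposite to that of Isg15, Ifit1 and Ifit3, at -1.86 (-2.11 to -1.63) for rd10-TMB over rd10-vehicle. The difference was not seen in all MG-like cells. In those with a UMI of the gene Lcn2 (653 and 300 cells), Cxcl10 was at 30.3 CPM (26.5 to 34.5) in rd10-vehicle and 26.3 CPM (21.6 to 31.8) in rd10-TMB. In those without Lcn2 (1839 and 1448 cells) it was at 41.2 CPM (38.0 to 44.7) and 5.19 CPM (4.01 to 6.60).

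**Figure D1:**
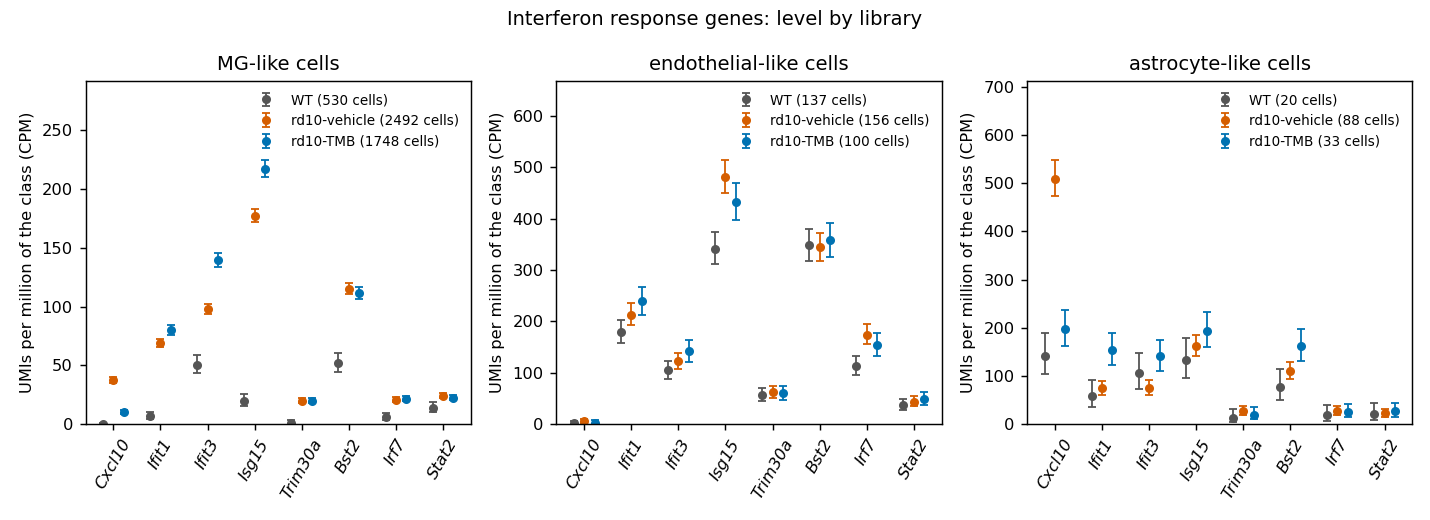
Vertical axes give UMIs of each of the 8 genes per 1000000 UMIs of the class (CPM, linear axis) in MG-like, endothelial-like and astrocyte-like cells, with points for the WT, rd10-vehicle and rd10-TMB libraries and bars for 95% exact Poisson intervals. In MG-like cells each gene was lowest in WT, and Cxcl10 was at 37.6 CPM in rd10-vehicle against 10.3 CPM in rd10-TMB.

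Across the members, the median log2 ratio in MG-like cells was 2.46 for rd10-vehicle over WT and 2.64 for rd10-TMB over WT, beside medians of -0.07 and -0.09 over all genes with enough UMIs (20 in the pair of libraries). At a limit of 1.5-fold, 8 of 8 members were higher in rd10-vehicle than in WT, against 9.78% of all genes, and 8 of 8 were higher in rd10-TMB than in WT, against 7.88%. With cells thinned to 1000 UMIs, Stat2 left both counts, at 0.022 and -0.20, and it fell short of the limit in a few other settings, while the other 7 genes stayed past the limit in every alternative run. Between the rd10 libraries the members' median was 0.03 against -0.02 over all genes. Cxcl10 was 1 of 8 members lower in rd10-TMB by that limit, against 3.75% of all genes, and 0 of 8 were higher, against 2.36%. These comparisons share the WT or the rd10-vehicle library with each other.

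**Figure D2:**
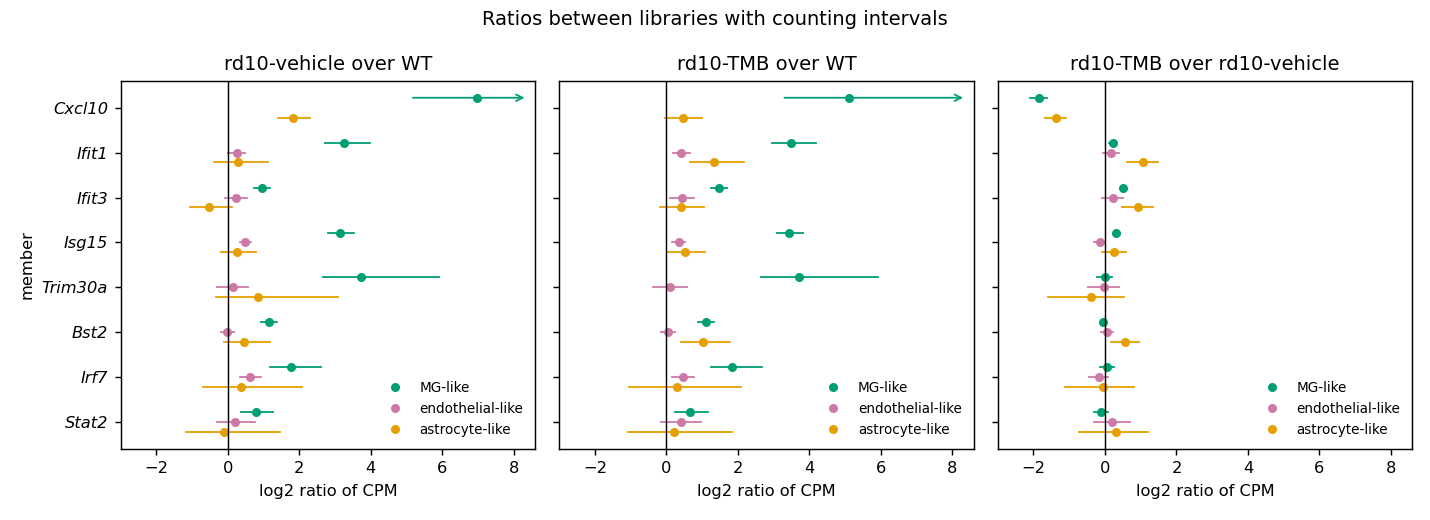
Horizontal axes give the log2 ratio of CPM of each gene for each pair of libraries, with points for MG-like, endothelial-like and astrocyte-like cells, lines for 95% counting intervals and arrows for intervals without an upper end. Points of the MG-like class lie to the right of 0 for both rd10 libraries over WT, and Cxcl10 lies at -1.86 for rd10-TMB over rd10-vehicle.

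The shares of MG-like cells with a UMI followed the levels for most members. A UMI of Isg15 was found in 7.36%, 42.9% and 43.2% of cells, one of Bst2 in 19.8%, 49.5% and 45.9%, and one of Ifit3 in 24.2%, 37.6% and 50.3%. Ifit1 was found in 1.89%, 19.6% and 20.3%, Irf7 in 3.40%, 13% and 13.5%, and Trim30a in 0.755%, 13.3% and 13%. Cxcl10 was found in 4.41% of the cells of rd10-vehicle and 2.0% of those of rd10-TMB. Any of the 8 genes was found in 47.7%, 82.7% and 83.5% of cells.

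The MG-like cells were deeper in rd10, with medians of 6300, 8593.5 and 9454.5 UMIs. With each cell thinned to 1000 UMIs (527, 2476 and 1727 cells), any member was found in 14%, 30.1% and 29.3% of cells, Isg15 in 1.90%, 10.7% and 11.6%, and Ifit1 in 0.380%, 4.16% and 5.15%. Trim30a was found in 0.569%, 1.62% and 1.85% of thinned cells (3, 40 and 32 cells), and its log2 ratios to WT, 3.71 for each rd10 library, were 1.13 and 1.46 in thinned counts. The share with Stat2 became 2.28%, 2.26% and 1.85%, so at equal depth the share of cells with Stat2 did not follow its CPM, and its level in thinned counts was lower in rd10-TMB than in WT (-0.20 on the log2 scale). Rod bipolar cells (RBC), neurons not known for this response, served as the class that should lack these transcripts. In RBC-like cells, with medians of 5032, 3638 and 4310 UMIs, Isg15 was found in 0.247%, 1.10% and 0.464% of cells and Bst2 in 0%, 1.10% and 0.618%, far under the shares in MG-like cells. Stat2 was found in 3.21%, 3.43% and 4.33% of RBC-like cells, closer to its shares in MG-like cells of 8.11%, 17.2% and 16%.

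The members were often found in the same MG-like cells. At least 2 members were found in 75 cells of WT (14.2%), 1397 of rd10-vehicle (56.1%) and 1011 of rd10-TMB (57.8%), and at least 3 in 2.64%, 32.0% and 33.9%. After thinning to 1000 UMIs, at least 2 were found in 0.759%, 7.15% and 7.87% of cells. All 8 genes were found in 0 WT cells, which allows a share of up to 0.566%, and in 4 and 3 cells of the rd10 libraries.

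To describe whether members fell in the same cells beyond their single shares, each pair's cells were set against the product of the 2 shares within a library. In WT 4 of the 5 pairs with at least 5 cells by that product were found together more often, with a median ratio of 1.38, close to the medians of the rd10 libraries. In rd10-vehicle 27 of 28 pairs with at least 5 cells by that product were found together more often, with a median ratio of 1.41 (range 0.973 to 2.03). The highest was Ifit1 with Irf7, together in 129 cells against 63.6, and the exception was Cxcl10 with Bst2, in 53 cells against 54.5. In rd10-TMB 26 of 26 pairs were above the product, with a median of 1.44. In thinned cells, where depth is equal, 8 of 8 and 6 of 6 pairs of the rd10 libraries were above it, with medians of 2.04 and 2.77, and WT had no pair with enough cells. The cells of a library share its mice and its free RNA, so the pairs are not independent of each other.

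**Figure D3:**
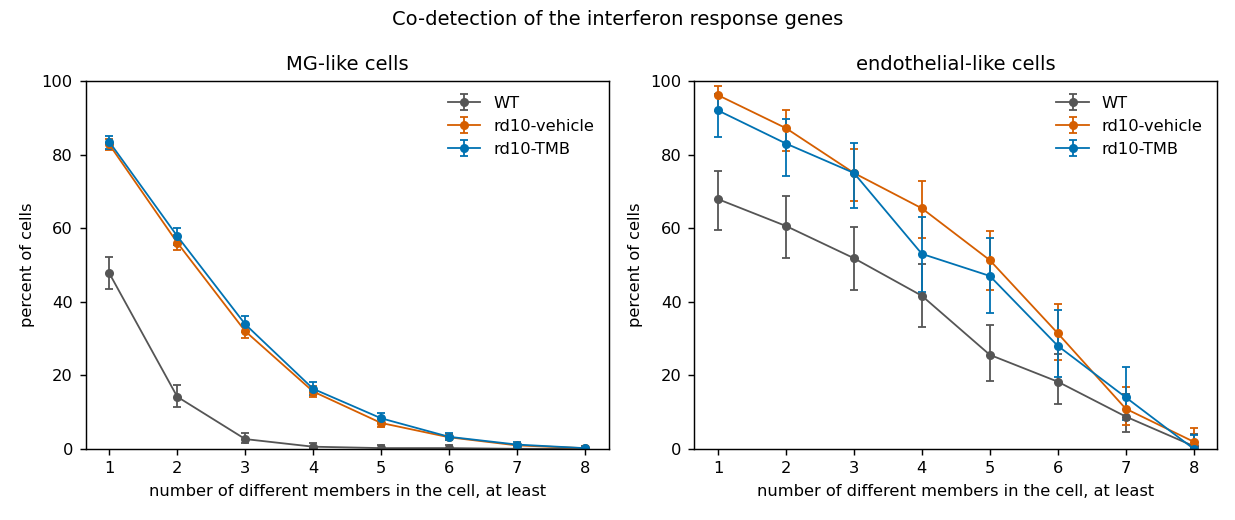
Percent of cells (vertical axis) that had at least the given number of the 8 genes (horizontal axis) in each library, for MG-like and endothelial-like cells, with bars for 95% exact binomial intervals. In MG-like cells 14.2% of WT cells had at least 2 members, against 56.1% and 57.8% for rd10-vehicle and rd10-TMB.

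A few MG-like cells held many member UMIs. The largest number in 1 cell was 22, 228 and 457, and 100 or more were found in 0, 8 and 7 cells. The 10 richest cells held 18.7%, 11.2% and 16.5% of the members' UMIs. Left out, they changed the ratio of rd10-TMB over rd10-vehicle for the summed members from 0.15 to 0.064, while the ratios to WT were 1.99 and 2.06. The make-up of the sum also differed, as Isg15 gave 13.3%, 31.6% and 34.9% of the members' UMIs, while Bst2 gave 34.5%, 20.5% and 17.9%.

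Cxcl10 was more concentrated than the sum. It was found in 110 and 35 MG-like cells of rd10-vehicle and rd10-TMB, of which 53 and 11 had 1 UMI and 23 and 9 had 10 or more. The median was 2 UMIs in both libraries, and the largest number 99 and 18. The 10 richest cells held 54.0% and 72.3% of the gene's UMIs, and without them the ratio of rd10-TMB over rd10-vehicle was -2.57. This cut took the larger share of UMIs from rd10-TMB, which by itself lowers the ratio.

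The other 7 members were higher in the cells with Cxcl10 than in those without it. In rd10-vehicle they summed to 955 CPM in the cells with Cxcl10 and 495 CPM in the others, at median depths of 9869.5 and 8530 UMIs. In rd10-TMB the sums were 2818 CPM and 547 CPM, at depths of 11540 and 9415 UMIs. Without the cells that had all 8 members (4 and 3), an alternative chosen after seeing the data, the cells with Cxcl10 were at 672 CPM in rd10-vehicle and at 1523 CPM in rd10-TMB. At least 2 of the other 7 members were found in 71.8% of rd10-vehicle cells with Cxcl10 against 54.5% of those without, and in 80% against 57.1% in rd10-TMB. After thinning every cell to 1000 UMIs, these shares were 8.57% (3 of 35 cells) against 6.64% in rd10-vehicle and 44.4% (4 of 9 cells) against 7.63% in rd10-TMB. The rd10-vehicle share thus rested on 3 cells. At least 1 of the other 7 was found in 42.9% (15 of 35) against 29.1% in rd10-vehicle and in 55.6% (5 of 9) against 28.9% in rd10-TMB. In these thinned cells the other 7 summed to 2486 CPM (1991 to 3066, from 87 UMIs) against 484 CPM in rd10-vehicle. In rd10-TMB they summed to 6444 CPM (from 58 UMIs) against 556 CPM.

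**Figure D4:**
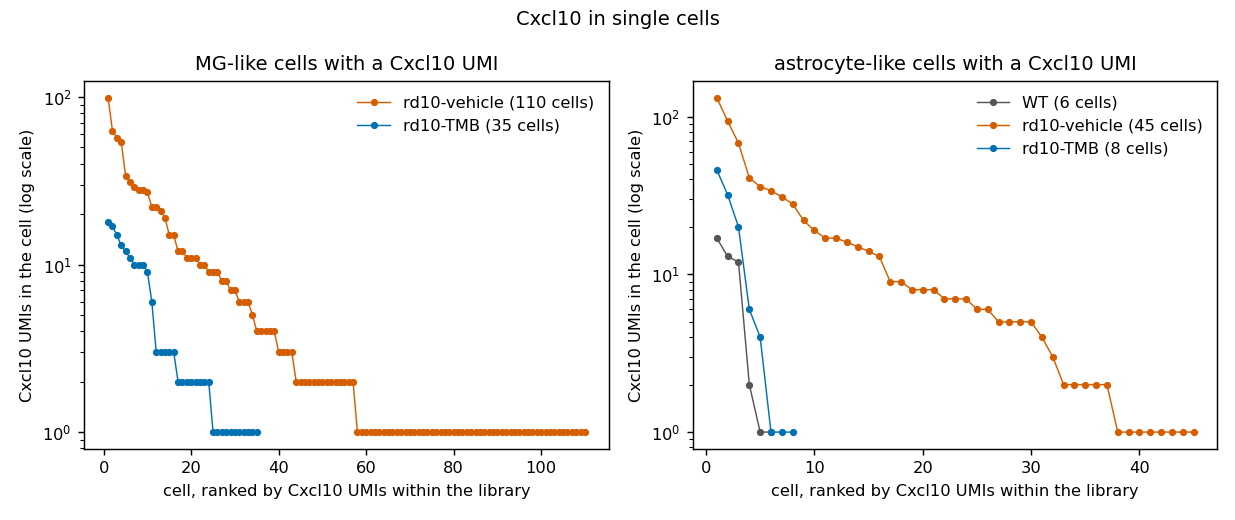
Cxcl10 UMIs in each MG-like and astrocyte-like cell that had any (log vertical axis), with cells ranked within their library on the horizontal axis. In MG-like cells the highest cell held 99 UMIs (rd10-vehicle) or 18 UMIs (rd10-TMB), and the median of either library was 2.

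RNA of other cells in the MG-like droplets was read from their markers. The 12 microglia markers summed to 20.2, 25.6 and 28.5 CPM, with 7, 1 and 1 of them at 0 and Tmem119 at 0 in all 3 libraries. The 12 endothelial markers summed to 1595, 1537 and 1493 CPM, with 2, 0 and 0 of them at 0. Nearly all of this sum came from Flt1, Kdr, Itm2a, Ramp2 and Egfl7, of which the highest was at 870.5 CPM. The other 7 (Cldn5, Pecam1, Cdh5, Tek, Ly6c1, Slco1a4 and Esam) were picked after their values were seen, for being under 1% of their endothelial-like level, and lay between 0 and 2.34 CPM. The 10 mural markers summed to 109, 151 and 158 CPM. Rod markers summed to 1052, 1498 and 1615 CPM, so RNA of rods was present in the MG-like droplets and higher in the rd10 libraries, and its part in the result was not tested. Without the 14, 99 and 53 cells that had a UMI of 1 of these 7 endothelial markers, the summed ratios were 1.89, 2.04 and 0.15.

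In the endothelial-like cells the members were found in WT already. The class held 137, 156 and 100 cells with 1396149, 1804358 and 1257971 UMIs. The 8 genes summed to 1181, 1444 and 1436 CPM. Any of them was found in 67.9%, 96.2% and 92% of cells, a smaller share in WT than in either rd10 library. After thinning, the shares were 37.8% (29.6 to 46.5), 57.1% (48.9 to 64.9) and 57% (46.7 to 66.9). The 10 richest cells held 44.1%, 25.4% and 38.4% of the members' UMIs, so the summed level rested on few cells most in WT. Isg15 was at 342, 481 and 432 CPM, Bst2 at 348, 344 and 358 CPM, and Ifit1 at 179, 213 and 239 CPM. Irf7, at 112, 174 and 154 CPM, had a log2 ratio of 0.63 (0.35 to 0.92) for rd10-vehicle over WT and was 1 of 7 members with enough UMIs past 1.5-fold, against 8.23% of all genes. This call depended on the settings. The ratio of Irf7 stayed past the limit in 9 of 13 alternatives, down to 0.26, and that of Isg15, 0.49 as reported, stayed within it in 8 of 13, up to 0.88. Stat2, at 0.21 as reported, reached 1.11 in 1 of 13, and its ratio of rd10-TMB over WT, 0.40, reached 1.60. The lowest values of Irf7 and Isg15, 0.26 and 0.055, came when WT was limited to the cells that had Xist but lacked Y-linked UMIs, and the highest of Stat2 after thinning.

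None of the 7 passed that limit in rd10-TMB over WT as reported, against 8.04% of all genes higher, or was lower by it in rd10-TMB over rd10-vehicle, against 6.22%. These calls depended on the settings too. Besides Stat2, the highest ratios of rd10-TMB over WT past the limit were 0.71 for Isg15, 0.70 for Irf7, 0.64 for Bst2 and 0.59 for Ifit3. In rd10-TMB over rd10-vehicle, Trim30a went from -0.04 to as low as -0.94. Cxcl10 had 3, 9 and 3 UMIs in these cells, too few to compare. The ratios of the sum over WT, 0.29 and 0.28, ranged over the alternatives from -0.064 to 0.69 and from -0.071 to 0.48. When WT was limited to cells with a UMI of Xist and none of a Y-linked gene (64 of 137), the ratios of the summed members were the lowest of these, and with cells of at most 10% mitochondrial UMIs (102, 149 and 97 cells) they were 0.077 and 0.063. They were higher after thinning, at 0.53 and 0.40. Markers of other cells also differed in these cells, the 10 mural markers summing to 6222, 9472 and 9745 CPM (in 57.7%, 89.7% and 81% of cells) and the rod markers to 667, 262 and 498 CPM, and their part in the result was not tested. Median depth was 7110, 9718 and 9116.5 UMIs.

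Among the classes, endothelial-like cells stood above MG-like cells in the summed members in each library (1181 against 150.0, 1444 against 561 and 1436 against 622 CPM). The small astrocyte-like class lay between them, at 568 CPM from 20 cells, 1005 CPM from 88 cells and 916 CPM from 33 cells. Without Cxcl10 its rd10-vehicle sum was 496 CPM, below the 524 CPM of MG-like cells, so in rd10-vehicle this order rested on Cxcl10. Microglia-like cells of rd10-vehicle and rd10-TMB were at 2388 and 1078 CPM (52 and 30 cells). The first of these was 1153 CPM without 2 cells, below the endothelial-like value, so microglia-like and endothelial-like cells of rd10-vehicle had no firm order. Next below the MG-like cells among classes of at least 50 cells came an OFF cone bipolar-like cluster in WT (80.8 CPM) and rd10-TMB (111 CPM), and rod-like cells in rd10-vehicle (107 CPM). MG-like cells held 18.3%, 69.9% and 77.6% of all member UMIs, and endothelial-like cells 60.5%, 14.6% and 13.4%. The MG-like class also made up more of the cells in the rd10 libraries.

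Astrocyte-like cells were the class in which Cxcl10 was most often found. It was in 6 of 20, 45 of 88 and 8 of 33 cells (30%, 51.1% and 24.2%), at 142, 509 and 197 CPM from 46, 717 and 111 UMIs. As in MG-like cells, the ratio of rd10-TMB over rd10-vehicle was below 0, at -1.36 (-1.67 to -1.08), and 10 or more UMIs were found in 3 of 20, 16 of 88 and 3 of 33 cells. Markers of other cells also differed in this class. The 12 endothelial markers summed to 114, 258 and 74.6 CPM, with 7, 1 and 9 of them at 0 and Cldn5 at 0, 57 and 0 UMIs, and were thus highest in rd10-vehicle, as Cxcl10 was. Rod markers summed to 339, 158 and 737 CPM, mural markers to 1096, 1914 and 1752 CPM and microglia markers to 40.1, 38.4 and 32.0 CPM. Their part in the result was not tested, and Cxcl10 itself was at 2.15, 4.99 and 2.38 CPM in the endothelial-like cells. The size of the difference depended on single cells. It was -0.37 without cells that had a microglia marker and -2.80 without the 10 cells richest in members. Leaving out the 10 cells richest in Cxcl10 gave -6.13. This cut removed all 8 rd10-TMB cells that had the gene, so its low value was fixed beforehand and does not describe the difference.

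At 1.5-fold, Cxcl10 and Trim30a were 2 of 8 members higher in rd10-vehicle than in WT astrocyte-like cells, against 9.68% of all genes. Trim30a had 4 UMIs in WT and 38 in rd10-vehicle, and its ratio of 0.84 turned to -2.14 after thinning. Between the rd10 libraries Cxcl10 was 1 of 8 members lower in rd10-TMB, against 11.1% of all genes. Ifit1, at 73.9 and 153 CPM in these libraries, and Ifit3, at 74.6 and 140.2 CPM, were 2 of 8 higher, against 7.63%. Their ratios, 1.05 and 0.91, also changed sign under other settings, Ifit1 to -0.67 without the 10 richest cells and Ifit3 to -0.91 after thinning. For rd10-TMB over WT the share of all genes was not counted. There the ratios past the limit were those of Ifit1 (1.32, from 0.12 to 2.39 over the alternatives) and Bst2 (1.03, from 0.28 to 1.21). That of Cxcl10 was 0.45, from -2.01 to 3.06.

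Microglia-like cells were compared only between the rd10 libraries, with 52 and 30 cells, since WT had 6. Bst2, found in 80.8% and 93.3% of the cells, was at 602 and 625 CPM in this order, and Trim30a at 127 and 147 CPM. Cxcl10 had 279 UMIs in 14 rd10-vehicle cells, 151 of them in 1 cell, and 9 UMIs in 3 rd10-TMB cells. Isg15 was at 310.1 and 129 CPM, Ifit1 had 52 and 4 UMIs, Ifit3 62 and 14, and Stat2 21 and 2. With Cxcl10, these made 5 of 8 members lower in rd10-TMB at 1.5-fold, against 13% of all genes. In rd10-vehicle 2 cells that had all 8 members held 420 of the 770 member UMIs (54.5%). Without them, 1 of 6 members with enough UMIs was lower (Cxcl10, -2.20), Isg15 was at 135 CPM in rd10-vehicle against 129 CPM, and the ratio of Ifit3 turned from -1.59 to 0.49. Markers of other cells were present in both libraries. The 13 MG markers, Apoe among them, summed to 40216 and 44514 CPM in the microglia-like cells. In the MG-like cells of the same libraries they summed to 49481 and 48617 CPM. The markers were only summed, so the genes behind the sum are not given, and whether it was RNA of MG was not tested. Rod markers summed to 354 and 824 CPM, the 12 endothelial markers to 46.5 and 112 CPM (6 and 8 of them at 0), and the 3 B-cell markers to 248 and 160 CPM (0 and 1 at 0). Their part in the result was not tested.

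Outside the glial and vascular classes the members were low. In 9 other classes of at least 50 cells the sums ran from 10.2 to 111 CPM over the 3 libraries, at median depths of 1406 to 5548.5 UMIs. Bst2 in rod-like cells had 4 UMIs in 1180 WT cells, 60 in 556 rd10-vehicle cells (9.35% of cells, 69.7 CPM) and 39 in 746 rd10-TMB cells (4.69%, 30.9 CPM), at median depths of 1423, 1406 and 1536 UMIs. In thinned cells the rd10 shares were 5.53% and 3.0%. Isg15 was found in at most 0.536% of rod-like cells of any library. Ifit1 and Ifit3 were found in an OFF cone bipolar-like cluster of all 3 libraries, WT included, with Ifit1 in 10.8%, 12.8% and 15% of cells and Ifit3 in 10%, 9.40% and 15.7%, whereas Isg15 had 0, 2 and 3 UMIs there.

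**Figure D5:**
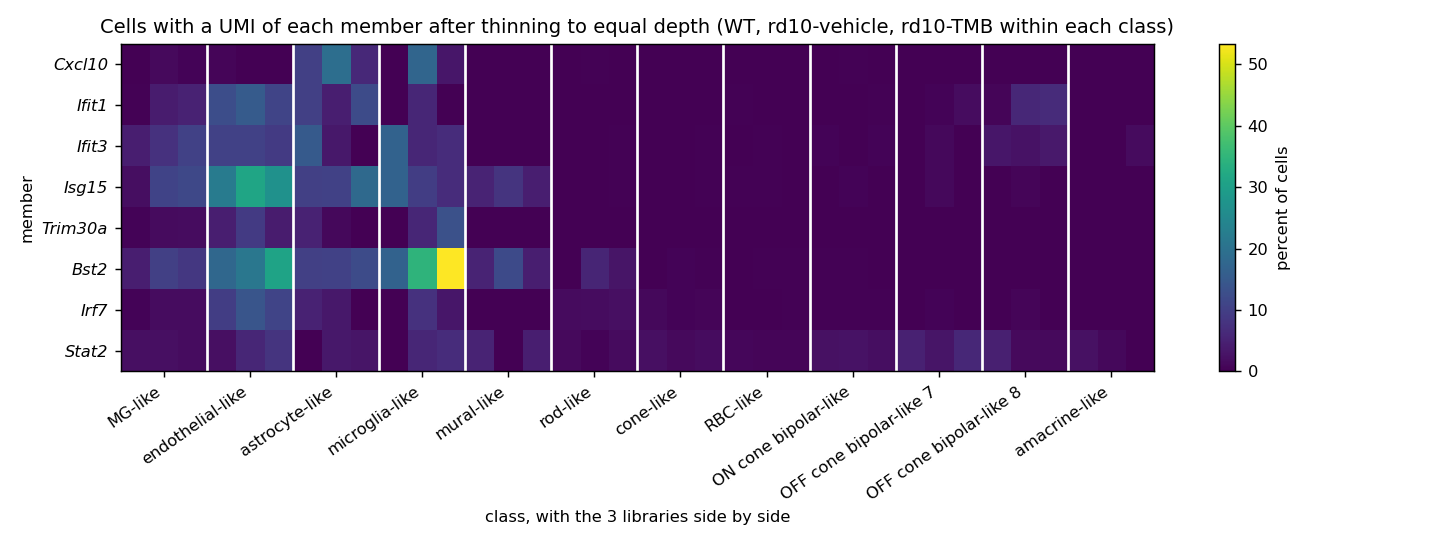
Colour gives the percent of cells with a UMI of each of the 8 genes (rows) after thinning every cell to 1000 UMIs, with the WT, rd10-vehicle and rd10-TMB libraries side by side within each class (columns). The shares are highest in the vascular, microglia-like, astrocyte-like and rd10 MG-like cells, and Bst2 in rod-like cells reads 5.53% and 3.0% in the rd10-vehicle and rd10-TMB libraries.

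The rest of the interferon pathway was described from lists of known genes in the MG-like cells, by the same limit of 1.5-fold. Over all genes of this class 9.78% were higher in rd10-vehicle than in WT by it, with a median log2 ratio of -0.07. The share of all genes lower by the limit was not counted for this pair, so counts of lower genes stand without one. Of the 10 interferon ligand genes listed, 0 were among the 18545 genes of the matrix, so no values of them could be given. Of 6 receptor genes 2 were higher in rd10-vehicle than in WT, Ifngr2 (14.8 against 25.8 CPM) and Ifnlr1 (0 against 50 UMIs), while the receptor subunits Ifnar1 (31.3 and 25.3 CPM), Ifnar2 (62.4 and 63.5 CPM) and Ifngr1 (55.4 and 52.5 CPM) stayed within it. The receptors were thus at similar levels in both libraries, apart from these 2. Of 12 signalling genes 4 were higher and 0 lower. They were Irf1, an interferon-induced transcription factor (27.7 against 97.0 CPM), Usp18, which removes Isg15 from proteins (3.31 against 13.2 CPM), and the feedback inhibitors Socs1 (ratio 1.36) and Socs3 (279.8 against 1181 CPM). Irf9 (29.2 and 41.4 CPM) and Jak1 (93.4 and 110.3 CPM) stayed within the limit.

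Of 9 nucleic acid sensors and adaptors with enough UMIs, 3 were higher (Dhx58, Zbp1 and Tmem173, each from 2 UMIs in WT) and 1 lower (Ikbke, 8 against 17 UMIs, -1.74). The RNA sensors encoded by Ddx58 and Ifih1 had ratios of 0.53 and 0.51, and the receptor gene Tlr3 -0.39. Among 46 other interferon-stimulated genes 28 were higher, against 9.78% of all genes, and 0 lower in rd10-vehicle, with a median of 0.78 against -0.07. Ifitm3, which blocks viral entry, was at 160.2 CPM in WT and 524 CPM in rd10-vehicle, Rsad2 (viperin) at 4.52 and 35.2 CPM, Oasl2 at 43.1 and 123 CPM, and the immunoproteasome gene Psmb8 at 58.1 and 137 CPM. Ifit2, of the same family as Ifit1 and Ifit3, had a ratio of 0.10.

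Of 11 GTPases and targets of interferon gamma, 10 were higher, against 9.78% of all genes, with a median of 1.58. Gbp2 was at 10.2 CPM in WT and 41.2 CPM in rd10-vehicle, and Gbp5 and Gbp9, other guanylate-binding proteins, had ratios of 2.12 and 2.48. Of 11 chemokine and NF-kB genes 7 were higher and 1 lower. Ccl2, which attracts monocytes, had 1 UMI in WT and 306 in rd10-vehicle, Cxcl1, a neutrophil chemokine, was at 6.02 and 59.0 CPM, and the adhesion molecule Icam1 at 4.52 and 39.5 CPM. The gene lower by the limit was Cx3cl1 (17 against 78 UMIs), with a ratio of -0.61 whose interval held 0.

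Between the rd10 libraries 2.36% of all genes were higher and 3.75% lower in rd10-TMB by the limit. In rd10-TMB the counts of higher and lower genes were 0 and 1 of 6 receptors (Ifnlr1, 50 against 19 UMIs), 0 and 0 of 12 signalling genes, 0 and 0 of 9 sensors, 1 and 0 of 46 other interferon-stimulated genes (Gm4951, 26 against 43 UMIs), 1 and 0 of 12 interferon gamma genes (Iigp1, 0.73) and 0 and 2 of 12 chemokine and NF-kB genes. Those 2 were Nfkbia, the NF-kB inhibitor, at 158 and 97.0 CPM, and Cxcl1, at 59.0 and 37.2 CPM. The median of the chemokine and NF-kB genes was -0.32 and that of the other interferon-stimulated genes -0.05.

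In the endothelial-like cells 8.23% of all genes were higher in rd10-vehicle than in WT. Of the lists, these were 4 of 12 signalling genes, 4 of 8 sensors, 10 of 46 other interferon-stimulated genes, 1 of 11 interferon gamma genes, 3 of 9 chemokine and NF-kB genes and 0 of 5 receptors, and 0 genes of the lists were lower. The share of all genes lower was not counted here either. The difference between the classes was not tested. Socs3 was at 120.3 CPM in WT and 435 CPM in rd10-vehicle, and Ifitm3 at 1185 and 2006 CPM.

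The genes most like the 8 members were named by their ratio between MG-like cells with at least 2 members (2483 cells) and those with fewer (2287 cells), pooled over libraries. The first 10 were Gm26737 (60 against 0 UMIs, at least 12.6-fold), Oas1a (53 against 2), Ifi44 (52 against 1), Iigp1 (57 against 4, 8.97-fold), Oasl1 (41 against 1), Lyz2 (37 against 1), Gm4951 (64 against 6, 6.71-fold), Il20rb (31 against 2), Phf11d (51 against 5, 6.42-fold) and Apol9a (28 against 2). Of these, 6 were on the lists above and all 10 had few UMIs. The libraries differ in how many of their cells had at least 2 members (14.2% in WT), so the pooled ratio also holds differences between libraries. Within rd10-vehicle and within rd10-TMB the ratio was 7.14 and 7.90 for Iigp1 and 3.14 and 10.1 for Gm4951. Lyz2, a lysozyme of myeloid cells, was at 3.12 CPM in the rd10-TMB cells with at least 2 members and 0.142 CPM in those of rd10-vehicle.

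By Pearson correlation of log levels over 35 profiles (13 classes by library), which share libraries and depth, the genes closest to the members' mean were Tmc6 (0.969), Icam1 (0.966), Sqor and Rsad2 (0.963 each), Capg (0.959), Trim34a and Morrbid (0.957 each), Tpt1 (0.955), Rplp0 (0.954) and Psmb8 (0.953). Each member against the mean of the other 7 ran from Trim30a (0.965), Isg15 (0.936), Bst2 (0.866), Ifit3 (0.859), Ifit1 (0.834) and Irf7 (0.804) to Cxcl10 (0.717) and Stat2 (0.576).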

How the data were processed

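The study loaded dissociated retinal cells on 10x Genomics 3' chips and made 1 library per group. Per the labels the authors aligned reads to mm10 with Cell Ranger 6.0.1 and used Seurat 3.2.2, and by the study's methods they kept cells with at least 500 genes, removed doublets with Scrublet and corrected libraries with Harmony. The deposited matrix holds the natural log of 1 plus UMIs per 10000 UMIs of the cell, for 15242 cells and 18545 genes, with the authors' cluster and library of each cell. The counts of UMIs the authors had normalized were recovered from it, with 32620606 of 32620606 values whole within 0.001, and no further doublet call was made.

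Clusters were named from marker lists (at least 3 markers at 2-fold and 20 CPM), which rebuilds names the authors may have given otherwise. UMIs were summed per class and library, with exact Poisson intervals for CPM, Clopper-Pearson 95% intervals for shares, and ratios with a pseudocount of 1 UMI and exact conditional intervals. A class was compared at 50 cells or more, apart from the small astrocyte-like and microglia-like classes, whose cell numbers are given. Genes needed 20 UMIs in the pair, and 1.5-fold was the limit of size. Shares were also taken after thinning to 1000 UMIs. With 1 library per group no test was run. The members and gene lists were chosen with earlier results of these data known. Other genes named are the 3 highest and up to 6 past the limit in each list, and the first 10 by similarity, while Ifit2, Cx3cl1 and the few pathway genes outside this rule were picked after their values were seen. Alternatives were other totals, size factors, depths, filters on cells and members left out. Calculations used Python 3.11.15, NumPy 2.4.6, SciPy 1.17.1 and pandas 2.3.3, and were tested on simulated data.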

Additional observations from a re-analysis of the deposited data

How the results depend on the processing

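Ratios below are log2, in the order rd10-vehicle over WT, rd10-TMB over WT and rd10-TMB over rd10-vehicle. In MG-like cells the summed members ranged over all alternatives from 1.80 to 2.46, 1.95 to 2.64 and 0.027 to 0.23. The median over members gave 2.46, 2.64 and 0.027, and the sum without Bst2 2.18, 2.37 and 0.20. For rd10-TMB over rd10-vehicle alone, the mean over cells gave 0.076, dropping the deepest 5% of cells 0.11, dropping the 10 cells richest in members 0.064 and the sum without Cxcl10 0.23. In endothelial-like cells the ratios (0.29 and 0.28 over WT) became 0.53, 0.40 and -0.13 after thinning, 0.52 and 0.45 as a mean over cells, 0.47 and 0.48 without the deepest 5%, 0.51, 0.40 and -0.11 without the 10 richest cells, 0.69, 0.48 and -0.21 without cells with a microglia marker, 0.077 and 0.063 at 10% mitochondrial UMIs or less and -0.064 and -0.071 with WT limited to cells with Xist and without Y-linked UMIs, and the first was 0.40 without Bst2. Cxcl10 in rd10-TMB over rd10-vehicle was -2.14 after thinning and -1.52 without cells with a microglia marker in MG-like cells, and -0.37 without the latter and -2.80 without the 10 richest cells in astrocyte-like cells. Without the 10 cells richest in Cxcl10, an alternative chosen after seeing the data, it was -2.57 in MG-like cells. In astrocyte-like cells it was -6.13, but there this cut removed every rd10-TMB cell with Cxcl10. Without cells that had all 8 members, added likewise, it was -2.00 in astrocyte-like cells. The share of MG-like cells with 2 members (14.2%, 56.1% and 57.8%) was 2.64%, 32.0% and 33.9% for 3 members, 0.759%, 7.15% and 7.87% after thinning, and 53.8% in rd10-vehicle without cells with a microglia marker.

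Signs turned for Stat2 in MG-like cells (rd10-TMB over WT, 0.66 to -0.20 after thinning), Trim30a in astrocyte-like cells (rd10-vehicle over WT, 0.84 to -2.14 after thinning, -0.20 without cells with a microglia marker and -0.59 without the 10 richest cells), and in astrocyte-like cells of rd10-TMB over rd10-vehicle for Ifit1 (1.05 to -0.67 without the 10 richest cells) and Ifit3 (0.91 to -0.91 after thinning). In microglia-like cells of rd10-TMB over rd10-vehicle they turned for Ifit3 (-1.59 to 0.057 after thinning, 0.73 without the 10 richest cells and 0.49 without cells that had all 8 members) and Stat2 (-2.40 to 0.38 after thinning). Counts of all genes past the limit, under a minimum of 200 UMIs and under a limit of 2-fold, were, in MG-like cells, 633 and 690 of 1356 higher (rd10-vehicle over WT), 418 and 547 of 1062 higher (rd10-TMB over WT), 96 and 139 of 543 lower and 31 and 74 of 341 higher (rd10-TMB over rd10-vehicle). In endothelial-like cells they were 164 and 257 of 840, 123 and 198 of 789, and 27 and 128 of 604. In astrocyte-like cells they were 80 and 334 of 782, 33 and 313 of 930, and 19 and 141 of 637, and in microglia-like cells 14 and 151 of 476. Both settings keep fewer genes by construction, and the cause of the other shifts was not tested. No paired analysis was possible because each group had 1 library and the labels carry no replicate numbers. Leaving out cells with a shared barcode or 1 of 7 endothelial markers was also chosen after seeing the data.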
